A study of Mus musculus with 8 samples.

Results

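The liver zonation markers described here are 10 genes chosen by name, 6 that mark pericentral hepatocytes (Glul, Cyp2e1, Cyp1a2, Slc1a2, Axin2 and Tbx3) and 4 that mark periportal hepatocytes (Cyp2f2, Hsd17b13, Pigr and Cdh1). All 10 were present among the 11784 genes of the deposited table. Livers came from 4 mice fed the Control diet (TD.140711) and 4 mice fed the Low AA diet (TD.140712), both amino acid defined, the Low AA diet with a smaller share of its calories from amino acids and a larger share from carbohydrate. All 8 were male C57BL/6J mice, moved from chow to their diet at 9 weeks of age, kept on it for 4 months and killed after about 16 hours without food overnight. Poly(A) RNA of whole liver was sequenced, and the table gives for each gene and mouse a read count that the authors had scaled and rounded, called a scaled count below. Values of single mice are given in the order F129, F2212, F7111 and F2110 for the Control diet and H1126, H828, H817 and H1315 for the Low AA diet.

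Hepatocytes in a liver lobule divide their work by position. Cells around the central vein make glutamine and carry out much of the oxidation of foreign compounds, while cells around the portal tract carry out most urea and glucose production. Wnt ligands from endothelial cells of the central vein act through beta-catenin and the TCF/LEF factors to keep the pericentral program on, and glutamine synthetase, encoded by Glul, is its classical target. Whole-liver RNA holds no position, so these genes report the total level of each marker and not where in the lobule it was made.

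None of the 10 markers passed the threshold between the diets, an adjusted p under 0.05 in limma with Benjamini-Hochberg adjustment over all 11784 genes, where 0.399% of all genes passed. At an unadjusted p under 0.05 there were 4 of the 10, all with lower values on the Low AA diet, against 11.8% of all genes in either direction, 5.13% higher and 6.70% lower. The markers were chosen with earlier results of these data known, so this share carries no test. These 4 came from both zones, Cyp1a2 and Slc1a2 from the pericentral side and Cyp2f2 and Pigr from the periportal side. The values of Cyp2f2 and Pigr did not overlap between the diets, which held for 6.81% of all genes in either direction with 3.55% lower and 3.26% higher. The median log2 fold change, Low AA minus Control on the scale of log2(scaled count + 1), was -0.16 over the 6 pericentral markers and -0.27 over the 4 periportal ones, against 0.00 over all genes. Pericentral log2 fold changes were negative for 5 and positive for 1. The periportal ones were negative for 2 and positive for 2, so their median lies between values of opposite sign. In bulk liver, fewer cells of a type and less RNA per cell cannot be told apart.

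Promoter sequences are shown for the pair of periportal genes without overlap, Cyp2f2 and Pigr, for Hsd17b13, a periportal gene with a higher mean on the Low AA diet, and for the pericentral cytochrome P450 genes Cyp1a2 and Cyp2e1. Each is the 250 bases before the RefSeq start on GRCm38.p6, 5′ to 3′ on the strand of the gene. Capitals mark matches to any of 4 motifs searched on both strands: the TCF/LEF core CTTTGA, the AHR-ARNT core GCGTG, the nuclear receptor half-site AGGTCA and the TATA box TATAAA.
Cyp2f2, chr7:27119705-27119954, plus strand: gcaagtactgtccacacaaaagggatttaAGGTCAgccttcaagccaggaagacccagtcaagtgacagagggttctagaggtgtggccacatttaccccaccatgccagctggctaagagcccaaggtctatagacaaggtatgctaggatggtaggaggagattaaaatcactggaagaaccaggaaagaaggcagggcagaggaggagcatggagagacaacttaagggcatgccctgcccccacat
Pigr, chr1:130826434-130826683, plus strand: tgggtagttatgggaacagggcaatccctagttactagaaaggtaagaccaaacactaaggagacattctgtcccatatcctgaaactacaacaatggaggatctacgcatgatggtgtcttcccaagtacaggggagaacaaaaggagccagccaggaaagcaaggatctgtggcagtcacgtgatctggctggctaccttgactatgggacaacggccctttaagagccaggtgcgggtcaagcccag
Hsd17b13, chr5:103977389-103977638, minus strand: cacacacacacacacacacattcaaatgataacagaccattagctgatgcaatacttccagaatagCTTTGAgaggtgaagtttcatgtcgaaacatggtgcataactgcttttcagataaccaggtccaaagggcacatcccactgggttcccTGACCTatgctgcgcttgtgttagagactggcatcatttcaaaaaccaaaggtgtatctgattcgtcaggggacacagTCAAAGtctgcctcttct
Cyp1a2, chr9:57683656-57683905, minus strand: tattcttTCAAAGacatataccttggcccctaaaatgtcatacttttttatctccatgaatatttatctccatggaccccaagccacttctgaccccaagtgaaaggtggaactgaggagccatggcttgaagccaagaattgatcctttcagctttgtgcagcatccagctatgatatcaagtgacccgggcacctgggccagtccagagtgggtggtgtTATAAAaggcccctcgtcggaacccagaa
Cyp2e1, chr7:140763569-140763818, plus strand: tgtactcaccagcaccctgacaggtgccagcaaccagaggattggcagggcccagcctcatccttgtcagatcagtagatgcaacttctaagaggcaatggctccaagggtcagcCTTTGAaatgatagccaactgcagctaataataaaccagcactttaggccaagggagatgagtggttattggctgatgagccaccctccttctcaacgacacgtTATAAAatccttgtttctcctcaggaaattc

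RefSeq promoters were at hand for 8 of the 10 markers, with Tbx3 and Cdh1 named only. The TCF/LEF core was in 4 of the 8, in those of Cyp1a2, Cyp2e1, Slc1a2 and Hsd17b13, and in 13.8% of all 32851 promoters of the same length. In Cyp2e1 it lay at bases -135 to -130 from the start and in Cyp1a2, on the reverse strand, at -243 to -238. The Slc1a2 window, chr2:102706188-102706437, belongs to a RefSeq start 47779 bases inside the gene span given below. The RefSeq starts of the other 7 lay between 15 bases before and 80 bases inside their GENCODE spans. Hsd17b13, a periportal gene, held 2 matches, at -184 to -179 and, on the reverse strand, at -18 to -13. The windows of Cyp2f2, Pigr, Glul and Axin2 held no match to these letters. The half-site AGGTCA was in those of Cyp2f2, Glul and Hsd17b13, and in 4607 of all 32851 promoters. The TATA box was in those of Cyp1a2 and Cyp2e1, at -29 to -24 and -31 to -26, and in 12.4% of all promoters. None of the 8 held GCGTG, present in 28.2% of all promoters, and none of the 4 motifs was found in the Pigr window. The matches printed here do not overlap each other, and a match is a description of letters and not of a bound factor.

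Among the pericentral markers, the genes of glutamate uptake and glutamine synthesis come first. Glul (chromosome 1, 153899944 to 153909723, GENCODE M21 on GRCm38) had scaled counts of 25661, 28846, 34522 and 21576 in the Control mice and of 22654, 22985, 25775 and 26170 in the Low AA mice. The Low AA values all lay inside the Control range, and the log2 fold change was -0.16 (95% interval -0.48 to 0.16, SE 0.14, adjusted p = 0.736 by limma). Slc1a2 (chromosome 2, 102658659 to 102790784) encodes the glutamate transporter GLT-1, which in liver is found in the same pericentral cells. Its scaled counts were 4643, 6012, 7997 and 6649 in the Control mice and 3685, 5238, 4620 and 4517 in the Low AA mice. The diets overlapped only because Low AA mouse H828, at 5238, lay above Control mouse F129, at 4643. The log2 fold change was -0.47 (95% interval -0.84 to -0.10, SE 0.17), with an unadjusted p of 0.0178 in limma and a limma adjusted p of 0.289. The exact permutation p of Slc1a2 was 0.0571, two-sided.

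The pericentral cytochromes P450 oxidise small foreign molecules. Cyp2e1 (chromosome 7, 140763739 to 140774987), the ethanol-inducible form, had scaled counts of 295710, 390528, 418431 and 316910 in the Control mice and of 319534, 286846, 303858 and 421645 in the Low AA mice. The ranges of the diets nearly coincided, with a log2 fold change of -0.10 (95% interval -0.49 to 0.29, SE 0.18, adjusted p = 0.890 by limma). Cyp1a2 (chromosome 9, 57676937 to 57683703), which metabolises caffeine and is induced through the aryl hydrocarbon receptor, had scaled counts of 3345, 3591, 5188 and 2623 in the Control mice and of 2578, 1970, 2253 and 2760 in the Low AA mice. Only Control mouse F2110, at 2623, lay among the Low AA values, below Low AA mouse H1315 at 2760. The log2 fold change was -0.59 (95% interval -1.02 to -0.17, SE 0.19), with an unadjusted p of 0.0110 in limma and a limma adjusted p of 0.245. The exact permutation p of Cyp1a2 was 0.0571, two-sided. Ahr, the gene of that receptor, had a log2 fold change of -0.08 (adjusted p = 0.916 by limma).

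Axin2, of the Wnt pathway, and Tbx3 are the remaining pericentral markers. Axin2 (chromosome 11, 108920349 to 108950783) encodes a brake on beta-catenin that is itself a target of the pathway. It had scaled counts of 162, 236, 362 and 298 in the Control mice and of 193, 281, 326 and 273 in the Low AA mice. The Low AA values lay inside the Control range, with a log2 fold change of 0.06 (95% interval -0.49 to 0.60, SE 0.24, adjusted p = 0.957 by limma). Its direction turned when Control mouse F129 was left out, giving -0.16, or Low AA mouse H817, giving -0.05. Tbx3 (chromosome 5, 119670669 to 119684724) encodes a T-box transcription factor of pericentral hepatocytes. It had scaled counts of 555, 657, 837 and 462 in the Control mice and of 414, 514, 1331 and 319 in the Low AA mice. Both the highest and the lowest of the 8 values were in Low AA mice, H817 and H1315, and the log2 fold change was -0.16 (95% interval -1.0 to 0.68, SE 0.38, adjusted p = 0.917 by limma). It was -0.59 without H817 and 0.10 without H1315, so its sign rested on single mice.

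The periportal markers held both the largest differences and values in the opposite direction. Cyp2f2 (chromosome 7, 27119909 to 27133660), a cytochrome P450 of periportal hepatocytes, had scaled counts of 26941, 14724, 24920 and 16223 in the Control mice and of 13212, 10826, 11603 and 11322 in the Low AA mice. Every Low AA value lay below every Control value, but the Control mice formed a higher pair, F129 and F7111, and a lower pair, F2110 and F2212. The log2 fold change was -0.77 (95% interval -1.20 to -0.35, SE 0.19), with an unadjusted p of 0.0022 in limma and a limma adjusted p of 0.131. The exact permutation p was 0.0286, two-sided, the smallest that 4 mice against 4 allow and the one any gene without overlap has. Pigr (chromosome 1, 130826684 to 130852249) encodes the polymeric immunoglobulin receptor, which carries immunoglobulin A across epithelia and is made by hepatocytes and bile duct cells. Its scaled counts were 37171, 36055, 41475 and 33882 in the Control mice and 27983, 17253, 23916 and 21602 in the Low AA mice. The lowest Control mouse, F2110, stood above the highest Low AA mouse, H1126. The log2 fold change was -0.73 (95% interval -1.06 to -0.40, SE 0.15), with an exact permutation p of 0.0286, two-sided. The limma adjusted p was 0.0793, which did not pass, and by its unadjusted p of 0.000545 in limma Pigr stood at rank 78 of all genes. With each mouse left out in turn and under every other alternative tried, Pigr kept a log2 fold change between -0.84 and -0.60 with a limma adjusted p of 0.0711 to 0.221, and Cyp2f2 one between -0.92 and -0.63 with a limma adjusted p of 0.0528 to 0.342.

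Hsd17b13 (chromosome 5, 103955440 to 103977410) encodes a lipid droplet protein of hepatocytes. It had scaled counts of 15690, 13393, 12144 and 15412 in the Control mice and of 14798, 18580, 18407 and 16250 in the Low AA mice. Of the Low AA mice only H1126 lay inside the Control range, and the log2 fold change was 0.27 (95% interval -0.0017 to 0.53, SE 0.12, adjusted p = 0.426 by limma). Cdh1 (chromosome 8, 106603351 to 106670246) encodes E-cadherin, the adhesion protein that joins periportal hepatocytes and bile duct cells. It had scaled counts of 1148, 359, 1052 and 1140 in the Control mice and of 1032, 851, 1016 and 946 in the Low AA mice. Control mouse F2212 stood far below all others. With it the log2 fold change was 0.19 (95% interval -0.53 to 0.92, SE 0.33, adjusted p = 0.876 by limma), and without it -0.21 (adjusted p = 0.450 by limma).

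**Figure D1:**
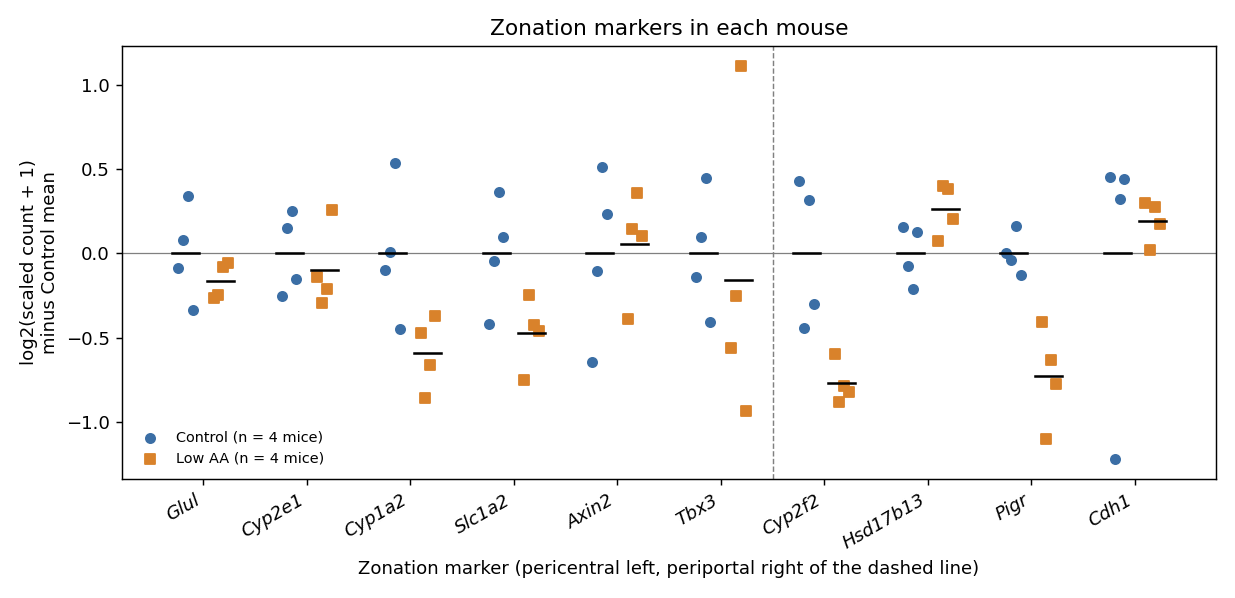
Each point is 1 mouse, with 4 Control mice as circles and 4 Low AA mice as squares, and its height is log2(scaled count + 1) less the mean of the Control mice. Black lines are means. Only Cyp2f2 and Pigr show no overlap, and F2212 is the low Control point for Cdh1.

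**Figure D2:**
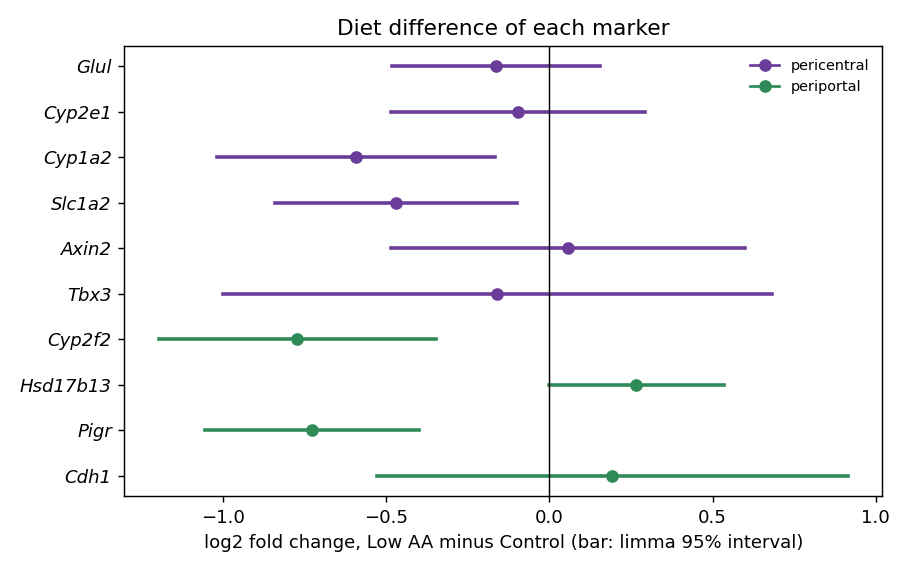
Points give the log2 fold change of each marker, Low AA minus Control, and bars its 95% interval in limma before any adjustment for multiple testing. The intervals of Cyp1a2, Slc1a2, Cyp2f2 and Pigr lie below 0, those of the other 6 markers include it.

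Markers of other cell types were read beside the zonation markers. Of 10 bile duct cell markers, 5 were in the table, none of them at 0 in any mouse, and their summed scaled counts were 1430 to 2626 on the Control diet and 1117 to 1730 on the Low AA diet. None of the 5 passed the threshold in limma, and 2 had an unadjusted p under 0.05, Krt19 with a log2 fold change of -0.87 and Sox9 with -1.05, against 6.70% of all genes in this direction. Pigr and Cdh1 are also made by bile duct cells, and the part of these cells in their values was not tested. Summed scaled counts of 8 acute-phase genes were 197326 to 395981 on the Control diet and 178575 to 218396 on the Low AA diet. Log2 fold changes were negative for 7 of them and positive for 1. The 2 of highest mean, Hp and Fgb, had log2 fold changes of -0.43 and 0.14. Of these 8 genes none passed the threshold, 2 had an unadjusted p under 0.05, and the values of the same 2, Saa1 and Orm1, did not overlap, with log2 fold changes of -3.49 and -2.06, where 3.55% of all genes did not overlap in this direction. Control mouse F2212, the low value for Cdh1, had the highest acute-phase sum and a scaled count of 36587 for the pancreas gene Cela1, against 130 to 288 in the other mice. The 6 hepatocyte markers found in the table by symbol summed to 1967112 to 2326269 on the Control diet and 2186414 to 2438783 on the Low AA diet. Of their log2 fold changes 3 were positive and 3 negative, with a median of 0.00. Alb, the largest part of the sum, had one of 0.20. The part of acute-phase expression and of pancreas RNA in the marker values was not tested. Without F2212 the count of markers past the threshold was still 0 in limma.

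The 10 markers also varied from mouse to mouse within a diet. The standard deviation of log2 values within a diet had a median of 0.30 over the 10, against 0.22 over all genes. It was 0.68 for Tbx3 and 0.58 for Cdh1, above those of 97.6% and 96.1% of all genes, and 0.17 for Hsd17b13, the lowest of the 10. For Cdh1 this spread includes Control mouse F2212, at 359 against 1052 to 1148 in the other Control mice. For Tbx3 it includes Low AA mouse H817, at 1331 against 319 to 514 in the other Low AA mice. Control mouse F7111 held the highest of the 8 values for 5 markers, Glul, Cyp1a2, Slc1a2, Axin2 and Pigr, and it held the highest value for 18.3% of all genes. Low AA mouse H828 held the lowest value for 4 markers, Cyp2e1, Cyp1a2, Cyp2f2 and Pigr, and for 13.7% of all genes. Hsd17b13 ran the other way in both mice, with its lowest value in F7111 and its highest in H828.

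Set side by side as means of log2(scaled count + 1), the pericentral markers differed by -0.24 and the periportal markers by -0.26 between the diets. The pericentral mean less the periportal mean was -1.30 in F129, -0.30 in F2212, -0.51 in F7111 and -0.97 in F2110. On the Low AA diet it was -1.04 in H1126, -0.67 in H828, -0.57 in H817 and -0.71 in H1315. The Low AA mice all lay inside the Control range, and the difference between diets was 0.02, with standard deviations of 0.45 among the Control mice and 0.21 among the Low AA mice (n = 4 each). The periportal mean joins log2 fold changes of opposite sign, -0.77 for Cyp2f2 and -0.73 for Pigr, 0.27 for Hsd17b13 and 0.19 for Cdh1. That of Cdh1 was -0.21 without F2212, the Control mouse at the upper end of the range. With single mice left out this difference ran from -0.15 without F129 to 0.18 without F2212.

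**Figure D3:**
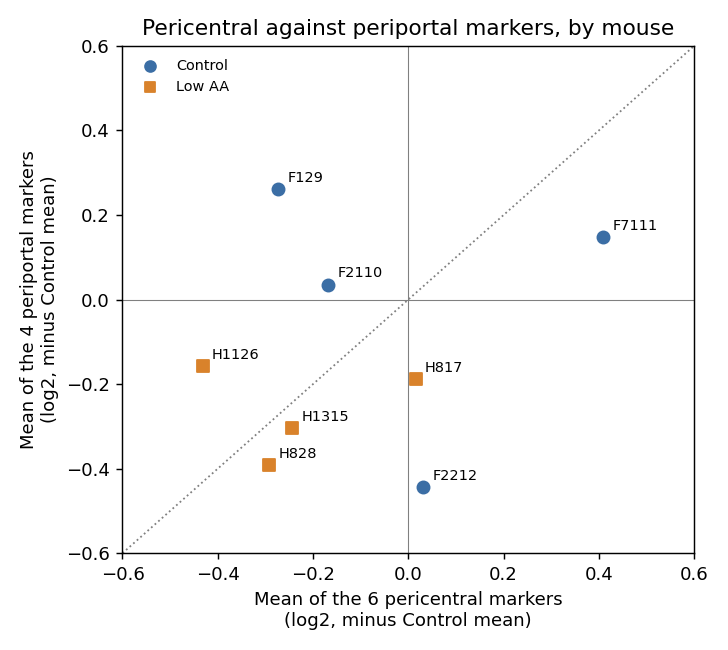
Each point is 1 mouse, placed by the mean of the 6 pericentral markers and the mean of the 4 periportal markers, both as log2 values less the Control mean. The dotted line marks equal displacement of both zones. The Low AA mice have periportal means from -0.39 to -0.16 and pericentral means from -0.43 to 0.02, and Control mice spread from F2212, at -0.44 for the periportal markers, to F7111, at 0.41 for the pericentral markers.

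Levels were compared between genes as scaled counts per kilobase of merged exons in GENCODE M21. Cyp2e1 was far above the rest, with a mean level of 187158 per kilobase over the 8 mice. Glul, Cyp2f2, Pigr and Hsd17b13 followed at mean levels of 9321, 8693, 7773 and 7225 per kilobase, and the ranges of neighbours in this order overlapped. Cyp1a2 came next at 1566 per kilobase, 1015 to 2674 over the mice, and then Slc1a2 at 448 per kilobase, each without overlap with its neighbours. Cdh1, Tbx3 and Axin2 were lowest at mean levels of 213, 122 and 62.5 per kilobase, with overlapping ranges between neighbours.

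Other genes known for pericentral expression were mostly lower in mean on the Low AA diet, 1 past the threshold in the other direction. Of 32 fixed by name, 31 were in the table, 22 with negative and 9 with positive log2 fold changes and a median of -0.24, against 49.5% negative and a median of 0.00 over all genes. In limma 1 of the 31 passed, Cyp3a11, a major drug-metabolising P450, which rose from 34706 ± 9195 to 80752 ± 16337 scaled counts (SD, n = 4 each), which is 1.23 on the log2 scale (SE 0.21, adjusted p = 0.0395 by limma). With single mice left out, the call was made in 1 of 8 fits, that without Control mouse F2110, while the log2 fold change was 1.09 to 1.38 and the limma adjusted p 0.0271 to 0.106 over all 15 alternatives. Reads of near-identical Cyp3a genes may be shared. Cyp27a1, a mitochondrial enzyme of bile acid synthesis, ran from 8404 to 10532 on the Control diet and from 5983 to 7618 on the Low AA diet without overlap, with a log2 fold change of -0.54 (adjusted p = 0.0847 by limma). Avpr1a, the vasopressin receptor of hepatocytes, had a log2 fold change of 0.61 (adjusted p = 0.158 by limma) and Cyp2c29, a P450 of a large gene family, one of -0.58 (adjusted p = 0.280 by limma). At an unadjusted p under 0.05 there were 10 of the 31, 2 higher and 8 lower, which is 32.3% against 11.8% of all genes. The genes on this list share families and were chosen with results known, so the share carries no test.

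The other periportal genes were split evenly. All 22 fixed by name were in the table, 11 with negative and 11 with positive log2 fold changes and a median of -0.04, and none passed in limma. At an unadjusted p under 0.05 there were 1 higher and 2 lower, which is 13.6% against 11.8% of all genes. Etnppl, listed under its older symbol Agxt2l1 and encoding an enzyme that breaks down phosphoethanolamine, ran from 3989 to 6325 on the Control diet and from 1681 to 2931 on the Low AA diet. The diets did not overlap, and its log2 fold change was -1.01 (SE 0.20, adjusted p = 0.0738 by limma). Over the 15 alternatives its limma adjusted p was 0.0497 to 0.146, under 0.05 only without Control mouse F2212. Sult5a1, a sulfotransferase, had a log2 fold change of -0.67 (adjusted p = 0.258 by limma) and Mfsd2a, a transporter of lysophospholipids, one of -0.51 (adjusted p = 0.455 by limma). G6pc, the last enzyme of glucose release, had one of 0.71 (adjusted p = 0.282 by limma), with Control values from 14286 to 26518 and Low AA values from 21527 to 46361. The urea cycle genes of this list, Cps1, Ass1, Asl and Arg1, had log2 fold changes of 0.28, -0.39, -0.25 and 0.30, and none passed.

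**Figure D4:**
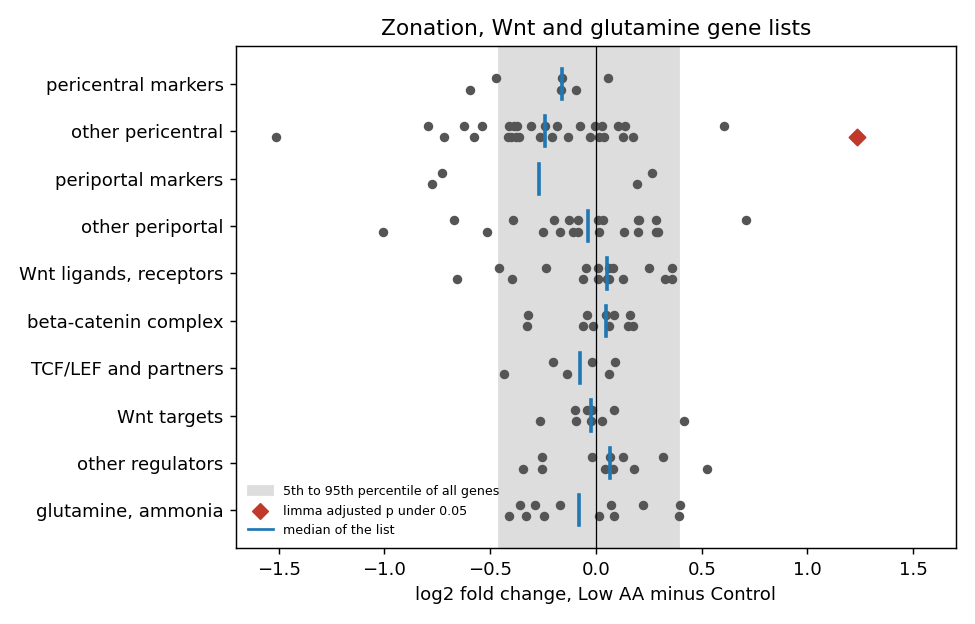
Each point is the log2 fold change of 1 gene, Low AA minus Control, by list, with the list median as a vertical bar and the 5th to 95th percentile of all genes, -0.46 to 0.39, in grey. The diamond is Cyp3a11, the single gene of these lists past the threshold in limma.

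The genes of the Wnt pathway were followed by role, and none of them passed the threshold in limma. Of 17 ligands, secretion factors and receptors in the table, 11 had positive and 6 negative log2 fold changes with a median of 0.05, and 3 had an unadjusted p under 0.05, 1 higher and 2 lower, which is 17.6% against 11.8% of all genes. The central vein signals Wnt2, Wnt9b and Rspo3 had log2 fold changes of 0.33, 0.25 and 0.08. Lrp5, a Wnt co-receptor, had one of 0.36 (adjusted p = 0.398 by limma) and Fzd8, a Wnt receptor, one of -0.66 (adjusted p = 0.421 by limma). Porcn, the enzyme that attaches the lipid Wnt ligands need for secretion, ran from 51 to 64 on the Control diet and from 38 to 48 on the Low AA diet without overlap, at -0.40 (adjusted p = 0.409 by limma). Among 11 genes of beta-catenin and its destruction complex the median was 0.05. Ctnnb1, which encodes beta-catenin, had a log2 fold change of 0.05, and Btrc, the ubiquitin ligase subunit that recognises it, one of -0.32 (adjusted p = 0.330 by limma). Among 6 TCF/LEF factors and partners the median was -0.08, with Bcl9 at -0.43 (adjusted p = 0.604 by limma). Among 9 targets of the pathway the median was -0.02, with Znrf3, which clears Wnt receptors from the cell surface, at 0.42 (adjusted p = 0.374 by limma) and Lgr5, also counted among the pericentral genes, at -0.27. At an unadjusted p under 0.05 there was 1 destruction complex gene, 1 target and no TCF/LEF gene.

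Other regulators of zonation and the genes around glutamine gave no call either in limma. Of 11 regulators in the table, 2 had an unadjusted p under 0.05, which is 18.2% against 11.8% of all genes, and the median log2 fold change was 0.07. Hhip, which binds Hedgehog ligands, had a log2 fold change of 0.53 (adjusted p = 0.278 by limma). Wwtr1, which encodes the Hippo pathway cofactor TAZ, ran from 460 to 552 on the Control diet and from 377 to 420 on the Low AA diet without overlap, a log2 fold change of -0.34 (adjusted p = 0.187 by limma). Of 12 genes of glutamine and ammonia handling, 6 had positive and 6 negative log2 fold changes with a median of -0.08, and 1 had an unadjusted p under 0.05. That gene, Slc38a3, encodes a glutamine transporter of the hepatocyte membrane and had a log2 fold change of -0.33 (adjusted p = 0.396 by limma). Oat, the pericentral ornithine aminotransferase that feeds glutamate to glutamine synthetase, had -0.41 (adjusted p = 0.474 by limma), and Gls2, the periportal glutaminase, had -0.17 (adjusted p = 0.802 by limma).

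The genes whose values were most like those of 4 markers across the 8 mice were found by Pearson's r of log2(scaled count + 1), given as a description over all 11784 genes. Nearest to Glul were Disp2, Rsad1 and Mob3c, with r of 0.98, 0.96 and 0.94. Nearest to Cyp1a2 were Gba2, Lmf1 and Ghr, the growth hormone receptor, with r of 0.96, 0.96 and 0.95. Nearest to Cyp2f2 were Ano1, Echdc1 and Tspyl2, with r of 0.97, 0.97 and 0.96. Nearest to Pigr were Kifc3, the complement gene C9 and 2010315B03Rik, with r of 0.98, 0.96 and 0.96. Of these 12 genes only C9 passed the threshold between the diets, with a log2 fold change of -1.90 (adjusted p = 0.0158 by limma), where 0.399% of all genes passed. Pearson's r was taken over both diets, so a diet difference shared with a marker went into the choice of these genes.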

How the data were processed

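Liver poly(A) RNA was measured in 4 mice per diet, each mouse being 1 replicate. Per the labels, the authors' tools were bcl2fastq 1.8.2, STAR 2.5.0a, RSEM 1.2.6 and edgeR 3.10.5 in R 3.2.1 on mm10. The study's methods name this R package for pathway enrichment, and the sources used here give no role for the other tools. The deposited values are a signal: read counts scaled between mice and rounded. Gaps and doublings among its low whole numbers show the scaling, whose method is not given, so count models were not applied. Column totals were 27876664 to 30799385. Every gene has at least 28 in 3 or more mice, so low genes had been removed. The deposited signed fold change, a score, and the deposited FDR, an adjusted p-value, come from the authors' own comparison and were not used.

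The fit used limma 3.58.1 (R 4.3.3) on log2(value + 1), with moderation along the trend of variance on mean, and p was adjusted by Benjamini-Hochberg over 11784 genes. The code was tested on simulated data. Exact permutation tests on single genes were two-sided. Gene lists held 208 symbols, 176 of them in the table, 5 through an older symbol in a RefSeq table. Tf of the hepatocyte list was not found by symbol, and transferrin was counted only as Trf, among the other periportal genes. Of the other lists of cell types, endothelial, stellate, macrophage, lymphocyte and blood markers are given in the closing section, and no adipose marker was in the table.

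Named genes were the 10 markers, genes of the lists past the threshold, the 4 smallest p of each wider zonation list, the 1 smallest of each other list, the 3 genes most like each of 4 markers, and cell type markers beside a result. Ahr, Oat, Gls2, Ctnnb1, Wnt2, Wnt9b, Rspo3, Lgr5, Col1a1, Alas2, Porcn, Fzd8, Hhip and the urea cycle genes were named outside this rule after their values were seen. The markers and lists were chosen with earlier results of these data known. Alternatives were the 8000 genes of highest mean, pseudocounts of 5 and 0.1, equal column totals, median-ratio scaling, no trend, robust moderation, and each mouse left out.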

Additional observations from a re-analysis of the deposited data

Results flagged for a closer look

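A single mouse stood apart from the rest of its diet in 3 of 72 sets of values, and chance gives about 1 in 20. All 3 were Control mouse F2212, low for Cdh1 (gap over range 0.925) and high for the pancreas gene Cela1 (0.945) and for the acute-phase sum (0.841), on the log2 scale.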

How the results depend on the processing

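No marker passed the threshold in limma under any of the 15 alternatives. Without 1 mouse, Axin2 had a log2 fold change of -0.16 (Control mouse F129 left out) and -0.05 (Low AA mouse H817), Cdh1 one of -0.21 (Control mouse F2212) and Tbx3 one of 0.10 (Low AA mouse H1315), each with its sign turned. With a mouse left out they ran from -0.16 to 0.23, from -0.21 to 0.34 and from -0.59 to 0.10. The other 7 markers kept their direction under all alternatives. Over all genes 47 passed, 19 with the 8000 genes of highest mean and 30 without the trend. With a mouse left out 16 to 77 passed, namely 77 without F2212, 29 without F129, 16 without H817, 19 without H828 and 21 without H1126. In the wider lists 1 gene passed, 0 with the 8000 genes and without the trend, and 0 to 1 with a mouse left out, 0 without F129, H1126, H828 or H817. The passing gene was not always Cyp3a11. Its limma adjusted p was 0.0599 without F2212, 0.0668 without F7111 and 0.0746 without H1315, where the count was still 1. Without F2212 the gene that passed was Etnppl, with a limma adjusted p of 0.0497. Without F7111 and without H1315 the limma adjusted p of Etnppl was 0.126 and 0.0998. The gene that passed there was neither Cyp3a11 nor Etnppl and is not named here. The pericentral less periportal difference ran from -0.15 to 0.18 with a mouse left out. The cause of these changes was not tested. No scaling moved the median of all genes by over 0.1. No paired analysis was possible because no mouse code or number links the diets. Scaled values do not give exact depth, so no counting interval is given.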

Other observations

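Markers of other liver cell types were compared between the diets, and none passed the threshold in limma. All 8 macrophage markers had positive log2 fold changes, with a median of 0.23, and 1 had an unadjusted p under 0.05, while the 10 endothelial markers had a median of 0.06 and none such. Of 9 stellate and fibroblast markers 8 had negative log2 fold changes, and 1, the collagen gene Col1a1, did not overlap, with 70 to 147 scaled counts on the Control diet and 37 to 69 on the Low AA diet (log2 fold change -1.07, limma adjusted p = 0.149). The 5 blood markers in the table all had negative log2 fold changes, with a median of -0.49, and 3 had an unadjusted p under 0.05, Alas2 among them without overlap at -0.49 (adjusted p = 0.266 by limma). Over all genes 11.8% had such a p and 6.81% did not overlap. The 5 markers' summed scaled counts were 7559 to 29015 on the Control diet and 9636 to 14253 on the Low AA diet. The 2 lymphocyte markers in the table summed to 46 to 79 on the Low AA diet and 44 to 381 on the Control diet, with F2212 the highest.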
